A study of Homo sapiens with 4 samples.

Results

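The cytosolic ribosome is built from a set of ribosomal proteins named RPL for the large subunit and RPS for the small one, and the accessibility of the chromatin at their genes is described here. Genes were taken by symbol: RPL or RPS followed by a number, with or without a closing A, X, Y1 or L, plus RPLP0, RPLP1, RPLP2 and RPSA, and without the RPS6K kinases. This gave 82 protein-coding genes, 49 of the large and 33 of the small subunit. Of these, 80 had a peak within 1 kb of either end of the gene, together 181 of the 190348 peaks of the series. RPL10L, a paralogue of RPL10 used mainly in the testis, and RPS4Y1, the Y-linked copy of RPS4X, had none. All 181 peaks had enough counts to be tested.

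The measurements are ATAC-seq counts. In this method the transposase Tn5 cuts open DNA, and what is sequenced is counted in each peak, near a gene or not. The cells were LM2, a line derived from the breast cancer line MDA-MB-231 and chosen for spread to the lung, kept with puromycin in DMEM with serum. A control group of 2 libraries had the genotype nontargeting control, and a group called sg1 here, also of 2 libraries, had the genotype CECR2 deletion 1. CECR2 is a bromodomain protein of a chromatin-remodelling complex, and the labels do not say whether each line was 1 clone or a pool. Each library came from 50000 cells. Nothing in the labels says that replicates came from separate cultures, and every p-value here therefore rests on a spread between libraries that may be technical.

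Ribosomal proteins surround the ribosomal RNA, and a cell needs most of them in matched numbers. Their genes, scattered over nearly all chromosomes, are therefore often studied as a group. They are transcribed strongly in dividing cells from short promoters that usually lack a TATA box. Their transcripts typically begin with a C followed by a run of pyrimidines, the terminal oligopyrimidine (TOP) motif, through which the growth regulator mTOR, acting in part through LARP1, controls their translation. Accessibility at a promoter is not a measure of the amount of RNA or protein.

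The start sites of 10 of the genes are printed to show this pyrimidine run, with the genes chosen for the accessibility results below. Each stretch has 50 bases before and 20 bases from the annotated start, is read 5′ to 3′ on the gene's strand and comes from RefSeq on GRCh38.p14. Capitals mark the run of C and T that begins at the start. RPS14, RPS19, RPL26, RPL24 and RPL12 had a peak that rose in sg1 and kept its call in all 12 alternative fits, RPL39 had a peak that fell, and RPSA and RPS27 did not pass the test. RPS27L and RPS4X do not begin with such a run and stand for the other kind of start.
RPS14: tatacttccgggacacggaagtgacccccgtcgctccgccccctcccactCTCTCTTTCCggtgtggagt
RPS19: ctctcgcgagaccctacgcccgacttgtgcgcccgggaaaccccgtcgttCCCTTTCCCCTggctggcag
RPL26: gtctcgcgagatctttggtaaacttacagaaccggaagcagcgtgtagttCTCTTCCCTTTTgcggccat
RPL24: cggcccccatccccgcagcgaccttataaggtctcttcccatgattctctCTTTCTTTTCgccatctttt
RPL12: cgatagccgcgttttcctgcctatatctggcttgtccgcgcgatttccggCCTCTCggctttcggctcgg
RPL39: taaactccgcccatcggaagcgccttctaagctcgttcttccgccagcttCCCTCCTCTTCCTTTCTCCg
RPSA: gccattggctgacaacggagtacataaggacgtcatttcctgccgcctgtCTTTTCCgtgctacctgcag
RPS27: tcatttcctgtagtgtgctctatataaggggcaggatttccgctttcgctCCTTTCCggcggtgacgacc
RPS27L: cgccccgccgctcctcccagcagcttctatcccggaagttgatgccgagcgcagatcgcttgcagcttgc
RPS4X: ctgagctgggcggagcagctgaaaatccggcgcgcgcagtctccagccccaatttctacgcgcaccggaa

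On the plus strand lay RPS19 at chr19:41860205-41860274, RPSA at chr3:39406670-39406739 and RPS27 at chr1:153990712-153990781. On the minus strand lay RPS14 at chr5:150449720-150449789, RPL26 at chr17:8383174-8383243, RPL24 at chr3:101686699-101686768 and RPL12 at chr9:127451387-127451456. RPL39 at chrX:119791611-119791680, RPS27L at chr15:63157458-63157527 and RPS4X at chrX:72277229-72277298 were on the minus strand too. All of these stretches span the first bases of exon 1 and the DNA before it, and all lie inside a peak of the count table.

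Promoters were listed for 65 of the 82 genes, and the window searched ran from 250 bases before to 50 after the start, on both strands for motifs. A TOP-type start, a C at an annotated start followed by at least 4 bases that are C or T, was found in 47 of 65 ribosomal protein genes (72.3%) and in 988 of 15843 protein-coding genes (6.24%). The letters CCGGAAG, the core bound by ETS-family factors, occurred in 23 of 65 (35.4%, against 16.5% of all genes). GGGCGG, bound by SP1, occurred in 58.5% against 64.3%, and TATAAA in 9.23% against 12.4%. CACGTG, the E-box that MYC binds, was in 4 of the 65 (6.15%, against 10.9%), and AAGATGGC, a YY1-type motif, in 6 (9.23%, against 4.66%). Some genes have several annotated starts, 1.23 on average for the ribosomal protein genes and 1.40 for all genes, and a motif at any of them was counted. The median GC content was 59.3% against 62.3%.

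The libraries differed in depth. After 109 peaks at the start of chromosome 1 had been set aside, 21002477 and 15561701 counts were left in the control and 43519018 and 38924086, in sg1. Levels are counts per 1000000 remaining counts of a library (CPM) after TMM scaling, which sets the libraries to a common scale from most of the peaks. Markers of the line had gene-end peaks: VIM stood at 85.4 CPM in the control, CD44 at 31.3, AXL at 21.6, EGFR at 19.1 and KRT18, at a peak shared with KRT8, at 17.2. The median of all genes was 18.3 CPM, taken from means over all 4 libraries and not from the control alone. CDH1 had only a weak peak of 0.617 CPM, and no gene-end peak was listed for ESR1, PECAM1, CDH5 or ALB. EPCAM at 14.9 CPM and the leukocyte gene CD3E at 31.98 CPM also had peaks, though neither was expected to mark this line, while the leukocyte gene PTPRC stood at 0.861 CPM; these levels alone do not identify the cells. Counts near gene ends do not read the edited sequence, so they give no check of the CECR2 deletion.

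Ribosomal protein genes had open but not exceptional gene ends. Each gene was represented by its tallest gene-end peak, the one with the highest mean CPM over the 4 libraries. The peaks had a median of 18.6 CPM, against 18.3 CPM over all 14632 protein-coding genes with a tested gene-end peak, and their median length was 850 bp against 985 bp. Per length, the median was 21.1 CPM per kb of peak against 17.8 CPM per kb, and 55 of 80 genes lay above the median of all genes. The upper quartile of all genes held 25 of them and the lowest quartile 5. From the highest to the lowest gene the level per length fell 6.17-fold. The highest value, that of RPL27A, belonged to a peak at its 3′ side and not at its start.

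Among levels per length, RPL27A, a large-subunit protein, came first with 65.7 and 59.4 CPM per kb in the control and 50.1 and 52.5 in sg1. RPSA, a small-subunit protein also known as the laminin receptor, had 48.6 and 51.0 against 47.2 and 47.5 CPM per kb, below RPL27A in both groups. RPL31 came last, with 9.92 and 7.20 CPM per kb in the control and 9.80 and 10.0 in sg1, next to RPL19 with 7.85 and 7.47 against 9.84 and 12.2. These neighbours overlapped. By median, large-subunit genes stood at 22.2 and small-subunit genes at 19.0 CPM per kb.

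**Figure D1:**
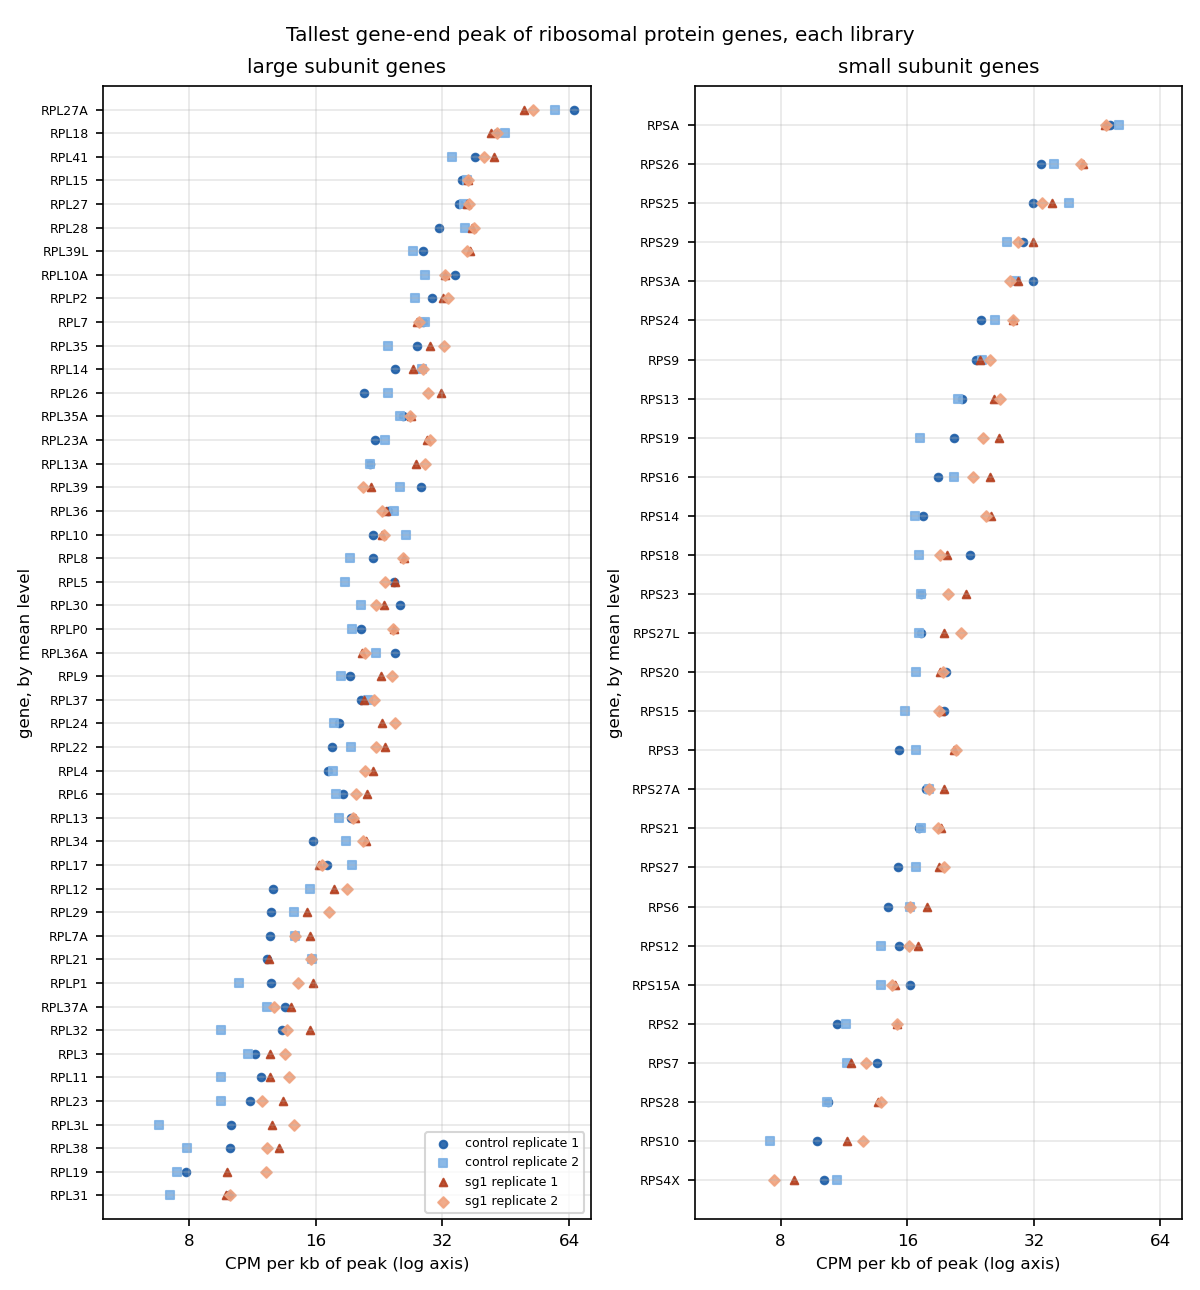
Level of the tallest gene-end peak of 75 of the 80 ribosomal protein genes in each library, in CPM per kb of peak on a log axis, with large-subunit genes on the left and small-subunit genes on the right, ordered by mean. Means over the 4 libraries run from 9.23 to 56.9 CPM per kb. Single libraries run from 6.79 (RPL3L, control replicate 2) to 65.7 (RPL27A, control replicate 1). The 4 libraries of a gene lie close together beside that range.

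The strand was known for 63 of the 80 genes. At 55 of them (87.3%) the tallest peak covered an annotated start, against 75.8% of 11870 genes with strand. For 7 genes the tallest peak lay only near the gene's 3′ end: RPL27A, RPL41, RPLP0, RPL4, RPL35A, RPL17 and RPS18. The peak was then also within 1 kb of ZC3H10 for RPL41, GCN1 for RPLP0, SNAPC5 for RPL4, C18orf32 for RPL17 and B3GALT4 for RPS18. These peaks therefore describe the neighbourhood of the gene and not its promoter, and the start-side peaks are given separately below. Of the start-side peaks, 61 covered an annotated start; they reached a median of 467 bp before and 421 bp after it, and 37 extended further before the start than after it.

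**Figure D2:**
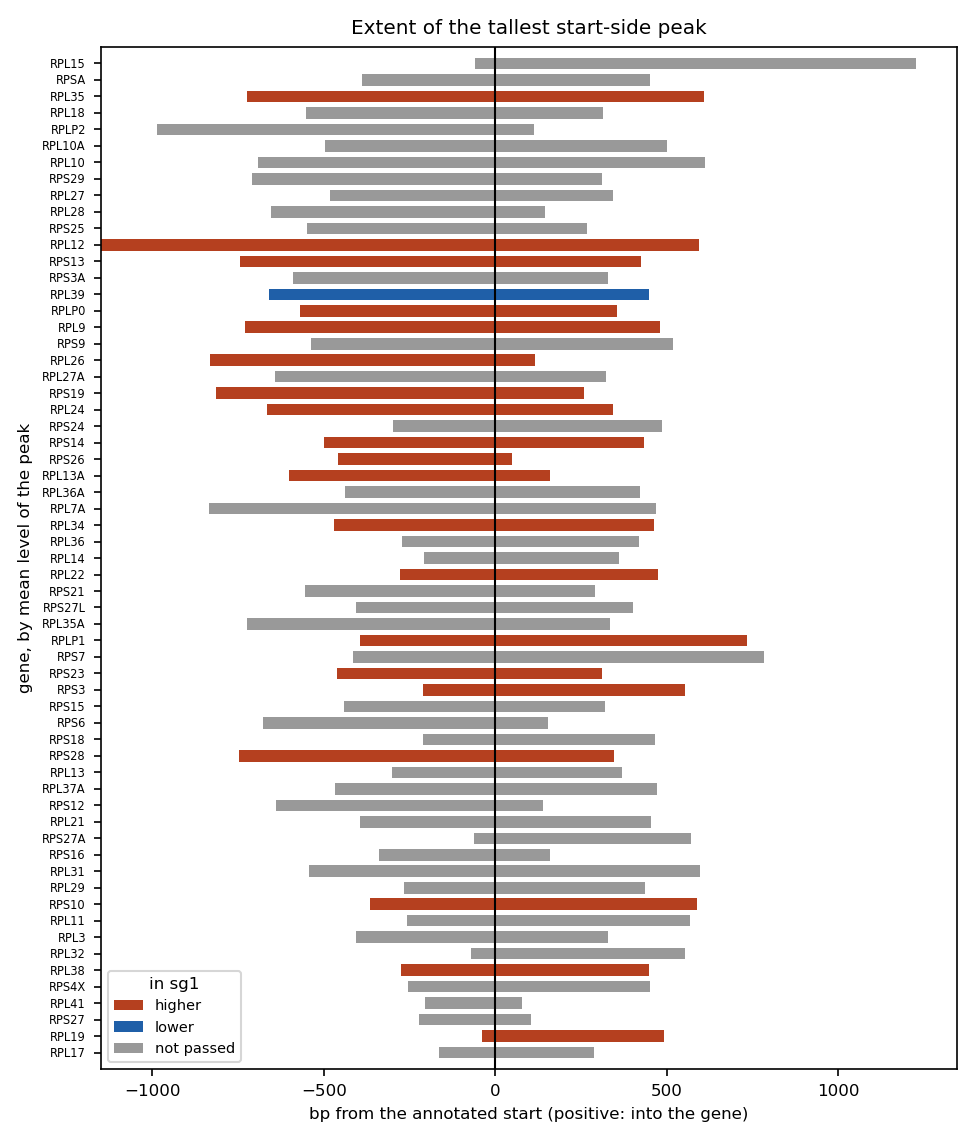
Extent of the tallest start-side peak of the 61 ribosomal protein genes whose peak covers an annotated start, in bp from that start, ordered by mean level and coloured by the call in sg1. Most peaks straddle the start, with medians of 467 bp before and 421 bp after it, and genes with a higher call (red) are spread over the whole range of levels.

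Comparing sg1 with control gives the difference in accessibility at these genes between cells with CECR2 deleted and control cells. An effect of the deletion cannot be told apart from other differences between the lines. Nor can it be told apart from depth, which was greater in both sg1 libraries. Most ribosomal protein genes shifted slightly upward, and so did most genes. The tallest peak rose in 27 of 80 genes (33.8%) and fell in 3 (3.75%) by edgeR's quasi-likelihood test at an FDR of 0.05 over all tested peaks; 50 did not pass. Over all protein-coding genes 30.6% rose and 8.94% fell, so the share that rose was near the background. The median log2 fold change was 0.17 for the ribosomal protein genes and 0.15 for all genes, with quartiles of 0.03 and 0.32 against -0.04 and 0.34. The fold change was above 0 at 62 of 80 genes (70.3% of all genes); this became 69 with library size alone, 71 with a loess offset and 44 with TMM factors from gene-end peaks. Unadjusted p-values under 0.05 were found for 38 rises and 4 falls. Matching counts over all genes are not given for unadjusted p-values, here or for the subsets below. DESeq2 called 16 higher and 2 lower, beside 17.5% and 5.44% of all genes. Among the genes described below, RPL4, RPL19, RPL38, RPLP1, RPS3, RPS10 and RPS26 passed with edgeR but not with DESeq2.

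The counts depended on scaling and on single libraries. With TMM factors taken from gene-end peaks alone, 8 genes were higher and 10 lower, and the median became 0.01; the median of all genes moved from 0.15 to -0.01, a shift that applies to every fold change in this text. Of the 27 genes that rose, RPL23A, RPL12, RPL39L, RPS19, RPL24, RPS14, RPL26 and RPL3L, 8 in all, kept their call under that scaling. Without sg1 replicate 1 the counts were 17 higher and 2 lower, and without sg1 replicate 2 they were 15 higher and 1 lower. The share of all genes called higher moved along, to 12.8% with gene-end TMM and 17.6% without sg1 replicate 2, as the plot of calls by setting shows. The difference between the median of the ribosomal protein genes and that of all genes lay between 0.00 and 0.05 over all settings.

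**Figure D3:**
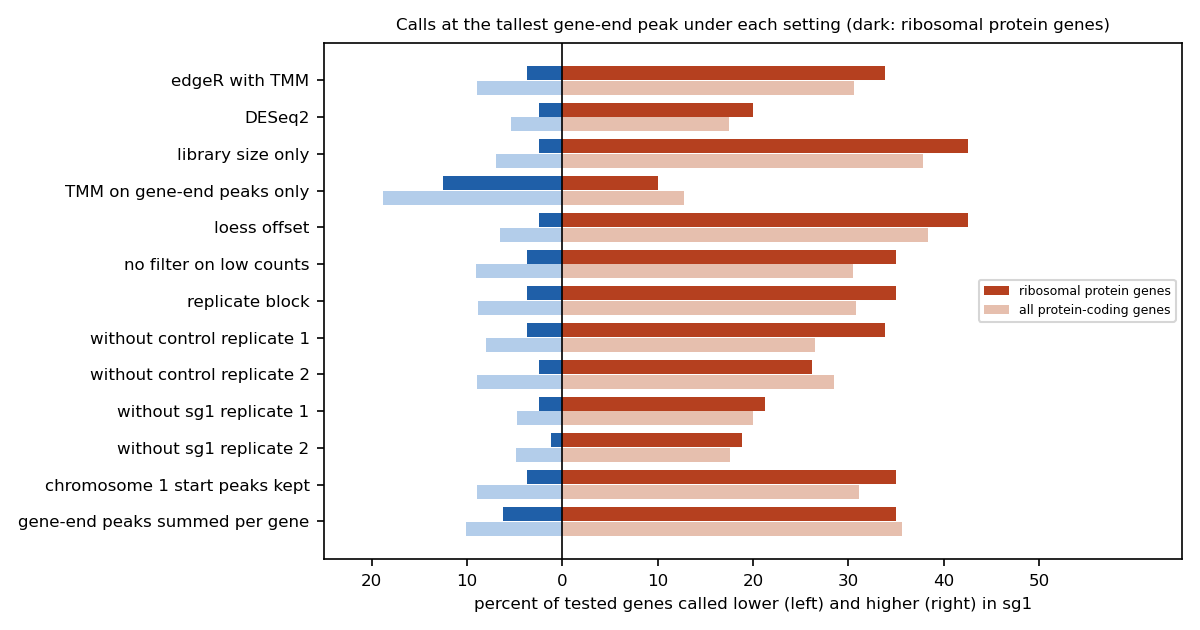
Percent of tested genes called lower (left of 0) and higher (right of 0) in sg1 at the tallest gene-end peak, for ribosomal protein genes (dark) and all protein-coding genes (pale), in the main analysis (top) and 12 alternatives. Dark and pale bars lengthen and shorten together, from 10.0% and 12.8% higher with TMM on gene-end peaks only to 42.5% and 38.3% with a loess offset.

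The groups did not overlap at 58 of 80 genes (72.5%, against 71.9% over all genes). Replicates of the control differed more than those of sg1. Log2 levels of replicates 1 and 2 differed with an SD over the 80 genes of 0.199 in the control and 0.102 in the deeper sg1 pair. The log2 fold changes had an SD of 0.211. A fold change compares means of 2 libraries and a replicate difference compares single libraries, so this SD is not on the scale of the others. Higher peaks changed less upward: over the 80 genes the fold change had a Spearman correlation of -0.34 with the level, and of -0.23 over all genes, where genes share libraries and depth. Among all genes with a peak above 24.8 CPM 26.9% rose, and so did 8 of the 30 ribosomal protein genes there (26.7%).

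**Figure D4:**
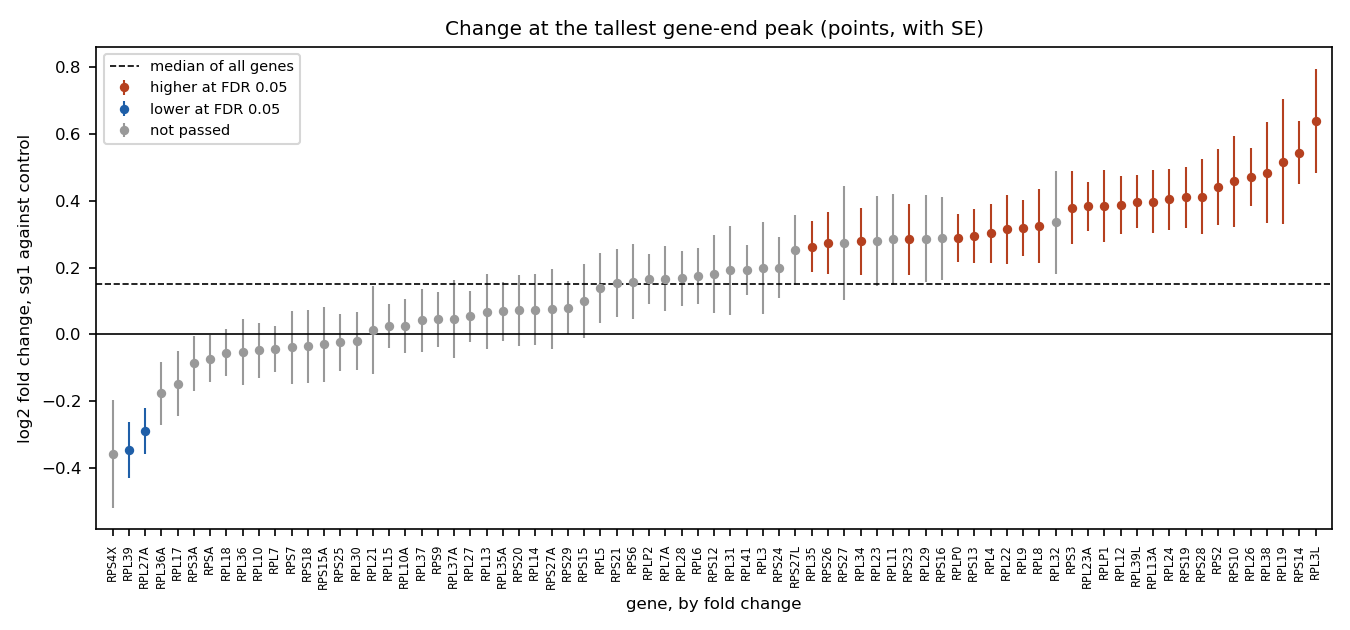
Log2 fold change of sg1 against control for 75 of the 80 ribosomal protein genes, each at its tallest peak, with its SE, ordered by size; red and blue mark peaks past the FDR of 0.05 and the dashed line is the median of all genes (0.15). The values run from -0.36 at RPS4X to 0.64 at RPL3L without a break between called and uncalled genes; with TMM on gene-end peaks only, every point would move down by about the distance from the dashed line to 0.

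Of the large-subunit genes, 17 of 48 rose (35.4%) and 2 fell (4.17%), beside 30.6% and 8.94% of all genes. Their median log2 fold change was 0.18. RPL26, which sits near the exit of the peptide tunnel and also binds p53 messenger RNA, had 19.7 and 22.5 CPM in the control and 30.1 and 28.0 in sg1. Its peak at chr17:8383078-8384024 covers the start, and both sg1 libraries lay well above both controls (log2 fold change 0.47 ± 0.09, SE; adjusted p = 9.51e-05, edgeR's quasi-likelihood test). RPL24, a protein at the face between the subunits, went from 18.4 and 17.8 CPM to 23.2 and 24.9, again with no overlap (0.40 ± 0.09, adjusted p = 0.000897). RPL12, part of the base of the stalk that recruits elongation factors, had 22.1 and 27.0 against 30.9 and 33.1 CPM. This peak is long, chr9:127450813-127452557, and also reaches the end of LRSAM1 (0.39 ± 0.09, adjusted p = 0.000852).

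RPL23A, next to the tunnel exit where the signal recognition particle docks, had 29.8 and 31.5 CPM in the control and 39.6 and 40.2 in sg1. The peak, chr17:28725105-28726452, lies beyond one end of the gene and is shared with TLCD1 (0.38 ± 0.07, adjusted p = 0.000145, edgeR's quasi-likelihood test). A second peak of RPL23A, chr17:28719207-28720065, overlaps the other end of the gene, is also near RAB34 and was nearly as tall. It had 33.5 and 27.2 against 32.04 and 30.9 CPM, with overlap, and did not pass (0.04 ± 0.08, adjusted p = 0.753), so the call of this gene rests on the peak outside it. RPL13A, a large-subunit protein also known from translational control of inflammatory transcripts, went from 16.4 CPM in both controls to 21.1 and 22.2 at a peak shared with FLT3LG. Its log2 fold change was 0.40 ± 0.09 with an adjusted p of 0.00153, and 0.24 with an adjusted p of 0.0512 when TMM used gene-end peaks only. RPL9, near the factor-binding site of the large subunit, rose from 23.4 and 22.2 to 27.6 and 29.3 CPM at a peak shared with LIAS (0.32 ± 0.08, adjusted p = 0.00408), a call lost without sg1 replicate 2 (adjusted p = 0.074). RPL4, a protein lining the exit tunnel, had 19.8 and 20.4 against 25.3 and 24.3 CPM at the end-side peak shared with SNAPC5 (0.30 ± 0.09, adjusted p = 0.00876), and lost its call without sg1 replicate 1 (adjusted p = 0.103). In each of these 4 genes the groups did not overlap.

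The stalk proteins RPLP0, RPLP1 and RPLP2 bind elongation factors to the large subunit. RPLP1, measured at its start (chr15:69452422-69453551), had 14.2 and 11.9 CPM in the control and 17.8 and 16.4 in sg1. The groups were apart and the peak rose (0.38 ± 0.11, adjusted p = 0.00722, edgeR's quasi-likelihood test), though not without control replicate 2 (adjusted p = 0.074) or sg1 replicate 1 (adjusted p = 0.112). RPLP0, with 34.1 and 32.5 against 40.9 and 40.6 CPM at its 3′ side, also rose (0.29 ± 0.07, adjusted p = 0.00253). RPLP2, at 33.3 and 30.2 against 35.2 and 36.3 CPM, did not pass (0.17 ± 0.08, adjusted p = 0.0997), and its peak is shared with PIDD1; without control replicate 1 it was called higher (0.24, adjusted p = 0.0322). With TMM on gene-end peaks only, neither RPLP0 (adjusted p = 0.175) nor RPLP1 (adjusted p = 0.116) passed.

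RPL5 and RPL11, which with the 5S RNA bind MDM2 when ribosome assembly fails, did not pass the test. RPL5 had 19.3 and 14.8 CPM in the control and 19.5 and 18.4 in sg1, so the groups overlapped (0.14 ± 0.10, adjusted p = 0.343, edgeR's quasi-likelihood test). RPL11 had 9.81 and 7.88 against 10.3 and 11.4 CPM, apart by a small gap (0.28 ± 0.13, adjusted p = 0.115). Control replicate 1 decided both: without it RPL5 had a log2 fold change of 0.36 (adjusted p = 0.0193) and RPL11 of 0.46 (adjusted p = 0.0311).

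By total CPM the 5 tallest peaks belonged to RPL27A, RPL15, RPSA, RPL7 and RPL41, and none of them rose. RPL15, a large-subunit protein whose loss causes anaemia, held 46.0 and 47.1 CPM in the control and 47.3 and 47.4 in sg1, a log2 fold change of 0.03 ± 0.07 (adjusted p = 0.815, edgeR's quasi-likelihood test). RPSA held 40.9 and 42.9 against 39.7 and 39.9 CPM (-0.07 ± 0.07, adjusted p = 0.470), although with TMM on gene-end peaks only it was called lower (-0.23, adjusted p = 0.0112). RPL7, sharing its peak with RDH10, had 41.0 and 41.4 against 39.7 and 40.2 CPM (-0.04 ± 0.07, adjusted p = 0.676) and also became lower under that scaling (-0.20, adjusted p = 0.0258). The peak of RPL41, the shortest ribosomal protein, had 37.96 and 33.5 against 42.1 and 39.9 CPM (0.19 ± 0.07, adjusted p = 0.05005) and just missed the threshold. It passed without control replicate 1 (0.29, adjusted p = 0.00474) and under 6 other settings.

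The 5 lowest by total CPM were RPL19, RPS27, RPS4X, RPL38 and RPL32. RPL19, which forms a bridge between the subunits, had 4.17 and 3.97 CPM in the control and 5.24 and 6.48 in sg1 and rose (0.52 ± 0.19, adjusted p = 0.0370, edgeR's quasi-likelihood test). RPL38, known for its part in translating Hox transcripts, had 7.23 and 5.73 against 9.45 and 8.86 CPM and rose too (0.48 ± 0.15, adjusted p = 0.0145). Both calls depended on the test, the scaling and single libraries. With DESeq2 neither RPL19 (adjusted p = 0.169) nor RPL38 (adjusted p = 0.0872) passed. With TMM on gene-end peaks only, neither RPL19 (adjusted p = 0.154) nor RPL38 (adjusted p = 0.102) passed edgeR's quasi-likelihood test. RPL19 also lost its call without control replicate 1 (log2 fold change 0.55), control replicate 2 (0.48) or sg1 replicate 2 (0.38). RPL38 did so without control replicate 2 (0.34) or sg1 replicate 1 (0.45). RPL32 had 8.30 and 5.93 against 9.68 and 8.51 CPM (0.34 ± 0.15, adjusted p = 0.102) and passed only without control replicate 1 (adjusted p = 0.00843) or with its peaks summed (adjusted p = 0.00664).

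Of the small-subunit genes, 10 of 32 rose (31.2%) and 1 fell (3.12%), beside 30.6% and 8.94% of all genes. Their median log2 fold change was 0.16. RPS14, a gene in the chromosome 5 interval lost in a myelodysplastic syndrome, had the smallest p of all 80. Its start peak at chr5:150449307-150450238 had 16.3 and 15.6 CPM in the control and 23.6 and 22.9 in sg1, a wide gap beside the replicate spread (0.54 ± 0.09, adjusted p = 3.07e-05, edgeR's quasi-likelihood test). RPS19, the gene most often mutated in Diamond-Blackfan anaemia, had 22.2 and 18.4 against 28.4 and 26.0 CPM at chr19:41859440-41860514. These groups did not overlap either (0.41 ± 0.09, adjusted p = 0.000852). RPS13 and RPS3, both small-subunit proteins, rose at their starts, RPS13 from 25.2 and 24.7 to 30.2 and 31.1 CPM (0.30 ± 0.08, adjusted p = 0.00529) and RPS3, a protein at the messenger entry channel, from 11.7 and 12.8 to 15.8 and 15.98 CPM (0.38 ± 0.11, adjusted p = 0.00795). RPS13 did not pass without sg1 replicate 2 (adjusted p = 0.0661), and RPS3 did not pass without control replicate 1 (adjusted p = 0.0778), sg1 replicate 1 (adjusted p = 0.0591) or sg1 replicate 2 (adjusted p = 0.0674).

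RPS2, a small-subunit protein near the messenger entry, had a low peak that rose. It went from 10.5 and 11.1 CPM to 14.6 in both sg1 libraries (0.44 ± 0.11, adjusted p = 0.00345, edgeR's quasi-likelihood test). When all gene-end peaks of RPS2 were summed, the log2 fold change was 0.22 and the adjusted p 0.0527. RPS28, a protein near the messenger exit, had 11.3 CPM in both controls and 14.9 and 15.2 in sg1 (0.41 ± 0.11, adjusted p = 0.00506), at a peak that also reaches KANK3 and NDUFA7, and it did not pass without sg1 replicate 2 (adjusted p = 0.0559).

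Genes mutated in Diamond-Blackfan anaemia, a failure of red cell production, were counted from a list of 9 per subunit. Of the small-subunit genes RPS19, RPS10, RPS26 and RPS28 rose and none fell, with a median log2 fold change of 0.27; unadjusted p-values under 0.05 were found for 5 rises and 0 falls, and DESeq2 called 2 and 0. Of the large-subunit genes RPL26 and RPL35 rose and none fell, with a median of 0.14; unadjusted p-values under 0.05 numbered 3 for rises and 0 for falls, and DESeq2 called 2 and 0. Over all genes 30.6% rose by edgeR's test, and with 9 genes a list the counts of 4 and 2 are close to that. With DESeq2 17.5% of all genes were higher. RPS10 had 9.32 and 7.23 CPM in the control and more in both sg1 libraries at its start (0.46 ± 0.14, adjusted p = 0.0105, edgeR's quasi-likelihood test), but with all its gene-end peaks summed the log2 fold change fell to 0.10 and the call was lost (adjusted p = 0.485), as it was without control replicate 2 (adjusted p = 0.119) or sg1 replicate 2 (adjusted p = 0.116). RPL35 had 37.1 and 31.7 against 39.99 and 43.0 CPM at a peak shared with ARPC5L (0.26 ± 0.08, adjusted p = 0.00942) and did not pass without control replicate 2 (adjusted p = 0.115) or sg1 replicate 2 (adjusted p = 0.113).

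Of the 3 genes whose tallest peak fell, RPL39 and RPL27A are described. RPL39, a small protein lining the exit tunnel and encoded on the X chromosome, had 31.6 and 28.1 CPM in the control and 24.1 and 23.1 in sg1 at its start, chrX:119791181-119792291. Both sg1 libraries were lower (-0.35 ± 0.08, adjusted p = 0.00175, edgeR's quasi-likelihood test), although without sg1 replicate 2 the adjusted p was 0.0604. RPL27A fell at its 3′ side, chr11:8688463-8689308, from 55.6 and 50.3 to 42.4 and 44.4 CPM (-0.29 ± 0.07, adjusted p = 0.00143; without sg1 replicate 1, 0.0653).

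The start-side peaks of genes whose tallest peak lies at the 3′ side were read separately. At the start of RPL27A, chr11:8682149-8683115, the peak had 23.6 and 22.7 CPM in the control and 25.5 and 26.8 in sg1, with no overlap and a fold change above 0 that did not pass (0.18 ± 0.08, adjusted p = 0.120, edgeR's quasi-likelihood test). That peak is shared with TRIM66. At the start of RPLP0, chr12:120200755-120201680, the level went from 24.5 and 23.1 to 27.6 and 29.7 CPM (0.26 ± 0.08, adjusted p = 0.0166), the same direction as at its 3′ side. Start-side means over the 4 libraries were 15.2 CPM at RPL35A, 13.4 at RPS18 and 10.5 at RPL4. At RPL41 the mean was 6.11 CPM and at RPL17 it was 1.90 CPM. Among these, RPL4 alone passed (0.33 ± 0.13, adjusted p = 0.0486, edgeR's quasi-likelihood test). Its start-side peak lies before the annotated start and does not cover it. The difference between the ends of a gene was not tested. With the tallest start-side peak in place of the tallest of either end, 21 of 63 genes rose (33.3%), RPL39 alone fell and the median was 0.20. Over all 11171 genes with a start-side peak, 31.8% rose, 7.93% fell and the median was 0.16.

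Paralogues ending in L stand beside parent genes that are used in all tissues. RPL39L, a testis-enriched copy of RPL39 that is also found in some cancers, had 24.9 and 23.6 CPM in the control and 32.2 and 31.8 in sg1. It rose (0.40 ± 0.08, adjusted p = 0.000266, edgeR's quasi-likelihood test) where RPL39 fell; a test of one gene against the other was not made. RPL3L, the copy of RPL3 used in skeletal muscle and heart, had 7.72 and 5.21 against 9.64 and 10.9 CPM, and its fold change was the highest among the 80 (0.64 ± 0.16, adjusted p = 0.00197). That peak, chr16:1942996-1943762, lies outside RPL3L and within 1 kb of MSRB1 as well. RPL3 had 8.45 and 8.14 against 9.14 and 9.95 CPM and did not pass (0.20 ± 0.14, adjusted p = 0.294).

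RPS27L, a p53 target that differs little in sequence from RPS27, had 13.9 and 13.7 CPM in the control and 15.8 and 17.3 in sg1 (0.25 ± 0.10, adjusted p = 0.0675, edgeR's quasi-likelihood test). RPS27 had 5.00 and 5.54 against 6.25 and 6.43 CPM at a short peak shared with RAB13 (0.27 ± 0.17, adjusted p = 0.239). In both the groups were apart without passing. RPL10, the parent of RPL10L and a late-joining large-subunit protein, had 28.5 and 34.1 against 29.99 and 30.3 CPM, with overlap (-0.05 ± 0.08, adjusted p = 0.708). RPS4X, the X-linked partner of RPS4Y1, had 7.14 and 7.68 against 6.07 and 5.44 CPM without overlap (-0.36 ± 0.16, adjusted p = 0.0934).

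Fold changes went only in part with the medians of all genes on the same chromosome, as the plot by chromosome shows. All 4 genes on the X chromosome (RPL10, RPL36A, RPL39 and RPS4X) had a fold change below 0, with a median of -0.26, and the 490 genes of that chromosome had a median of -0.18; the value of RPL10 was -0.05 and became 0.01 with a loess offset. With TMM on gene-end peaks only, RPL36A (-0.33, adjusted p = 0.00646, edgeR's quasi-likelihood test) and RPS4X (-0.51, adjusted p = 0.0137) were called lower as well. On chromosome 17 all 6 genes lay above 0 (RPL27 at 0.05, but at -0.10 with TMM on gene-end peaks only) and 4 rose, RPL26, RPL23A, RPL38 and RPL19; their median was 0.43, against 0.27 for the chromosome. Chromosome 19 carries 12 of the genes, more than any other, of which 3 rose (RPS19, RPL13A and RPS28), with a median of 0.11 against 0.24. On chromosome 2, where the median of all genes was 0.00, the 4 genes had a median of 0.06. Over the 80 genes the fold change had a Spearman correlation of 0.34 with the median of the gene's chromosome, and 46 lay above that median and 34 below it. Copy number was not measured in these files, and its part in the result was not tested. With the X chromosome left out, 27 of 76 rose (35.5%) and 2 fell (2.63%), and the median was 0.19. Over all genes, X included, 30.6% rose and 8.94% fell. Shares over all genes of a single chromosome are not given here. The counts by chromosome are therefore not read as particular to ribosomal protein genes.

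**Figure D5:**
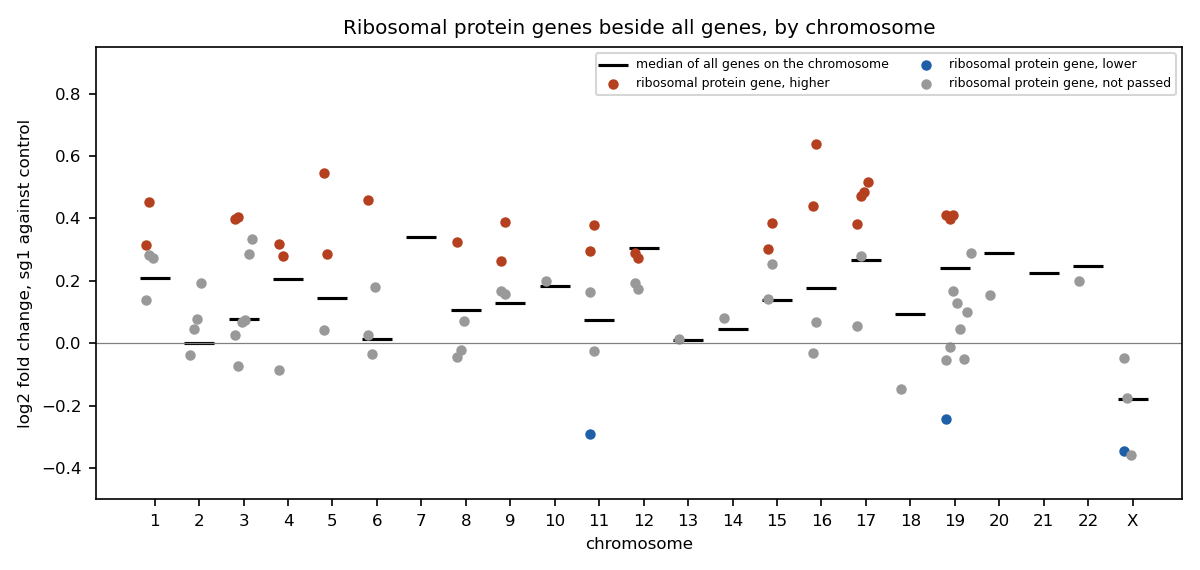
Log2 fold change of sg1 against control for each ribosomal protein gene at its tallest peak, by chromosome, with the median of all protein-coding genes of that chromosome as a bar. All 4 genes on X and the bar of X (-0.18) lie below 0, all 6 genes of chromosome 17 lie above 0, and chromosomes 7 and 21 carry none of the genes; these positions are for TMM over all peaks, and TMM on gene-end peaks lowers all values together.

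The medians of genes with TOP-type and other starts were close to each other. Of the 46 genes with a TOP-type start and a peak, 16 rose and 2 fell, with a median log2 fold change of 0.19; of the 17 without one, 5 rose, and the median was 0.17. Over all genes 30.6% rose and 8.94% fell, and these shares are not given apart for genes with and without such a start. The medians over all genes were 0.16 for 815 genes with such a start and 0.15 without. RPS14, RPS19 and RPL26, which rose, and RPSA and RPS27, which did not pass, all begin with the run of C and T printed above. GC content of the promoter had a Spearman correlation with the fold change of -0.08 over 63 ribosomal protein genes and of 0.17 over 11870 genes.

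Many peaks served other genes too. The tallest peak lay within 1 kb of another protein-coding gene for 26 of the 80, and there 9 rose and 0 fell, with a median of 0.17; unadjusted p-values under 0.05 belonged to 13 rises and 0 falls, and DESeq2 called 8 and 0. By edgeR's test 34.6% were higher, beside 33.7% higher and 8.25% lower over all genes with a shared tallest peak. For DESeq2 the share is given only over all genes, 17.5% higher and 5.44% lower, and not for shared peaks. Peaks of their own were found for 54 genes, of which 18 rose (33.3%) and 3 fell (5.56%), with a median of 0.19, beside 29.4% and 9.20% of all genes with a peak of their own. Shared peaks were higher in level, with a median of 25.5 CPM over 1009.5 bp against 15.4 CPM over 839.5 bp.

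Of the 80 genes, 24 had 1 gene-end peak, 25 had 2, 22 had 3 and 9 had more, up to 7 at RPS14. Over all 181 peaks 36 rose and 5 fell, beside 21.2% and 7.28% of all gene-end peaks. Among these, 105 peaks at a start had a median of 10.4 CPM, and 24 rose and 1 fell; 42 peaks at a 3′ end had a median of 3.62 CPM, and 6 rose and 3 fell. Without sg1 replicate 1 the 181 peaks gave 19 higher and 4 lower, and without sg1 replicate 2 they gave 18 higher and 2 lower. The 101 peaks that were not the tallest of their gene were small, with a median of 2.38 CPM, and 9 rose and 2 fell. Shares over all genes by side, or for peaks that are not the tallest, are not given here. The counts of these subsets are therefore not read as particular to ribosomal protein genes.

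The smallest p among the smaller peaks belonged to the 3′ side of RPS4X at chrX:72272919-72273237. There the controls held 6.60 and 6.06 CPM and the sg1 libraries 2.69 and 3.01, and no other of the 181 peaks fell by more (-1.16 ± 0.19, adjusted p = 2.17e-05, edgeR's quasi-likelihood test). The start of RPS4X, described above, fell short of the threshold, and with both peaks summed the log2 fold change was -0.67 (adjusted p = 1.15e-05). At RPS26 a peak just before the start, chr12:56041254-56041442, had 17 and 22 counts against 118 and 95 in sg1, or 0.825 and 1.43 against 2.66 and 2.41 CPM (1.21 ± 0.31, adjusted p = 0.00294). The tallest peak of RPS26, over the start, rose far less, from 16.9 and 18.2 to 21.3 and 21.1 CPM (0.27 ± 0.09, adjusted p = 0.0263). Without sg1 replicate 1 that start peak had an adjusted p of 0.139, without sg1 replicate 2 of 0.115 and without control replicate 1 of 0.160. At RPL41 a peak before the start, chr12:56116214-56116396, went from 2.72 and 2.93 to 5.05 and 4.74 CPM (0.80 ± 0.21, adjusted p = 0.00383). How the authors placed reads that match processed pseudogenes, of which ribosomal protein genes have many, is not stated, and its part in these values was not tested.

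Summed over the 181 peaks, ribosomal protein gene ends took 0.200% and 0.196% of the counts of the control libraries and 0.226% and 0.223% of the sg1 libraries. The 95% Wilson intervals, 0.198% to 0.202% and 0.194% to 0.198% in the control and 0.224% to 0.227% and 0.222% to 0.225% in sg1, cover counting error only. The share was 0.198% ± 0.00292 in control libraries against 0.224% ± 0.00155 in the deleted line (SD, n = 2), higher in both sg1 libraries and 1.13 times as large. An exact two-sided permutation test over 4 libraries cannot go below the p of 0.333 found here. All gene-end peaks together went from 27.9% to 30.7%, a ratio of 1.10. When the chromosome 1 start was kept in the totals, the difference between groups shrank from 0.0265 to 0.004998 percentage points.

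Other genes of protein synthesis showed shares of the same order, read here against 30.6% higher and 8.94% lower over all genes. Of 75 genes of the mitochondrial ribosome, 23 rose (30.7%) and 1 fell, with a median of 0.16. MRPS15 had the smallest p among those that rose, with 10.0 and 9.57 CPM in the control and 15.3 and 16.8 in sg1 (0.71 ± 0.12, adjusted p = 1.43e-05, edgeR's quasi-likelihood test), followed by MRPL55 (0.61) and MRPL51 (0.38). MRPL50, at a peak shared with ZNF189, was the one that fell (-0.39 ± 0.07, adjusted p = 5.53e-05). Of 61 ribosome biogenesis genes 16 rose (26.2%) and 2 fell, with a median of 0.09. NOP56 (0.57) and FBL (0.60), both of the box C/D particles that methylate ribosomal RNA, and the nucleolar chaperone NPM1 (0.39) rose, while the helicase DDX18 (-0.53) and the kinase RIOK1 (-0.35) fell.

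Of 42 translation factor genes 13 rose (31.0%) and 3 fell, with a median of 0.16. EIF4B, a cofactor of the eIF4A helicase, went from 13.3 and 17.4 to 22.1 and 22.8 CPM (0.57 ± 0.10, adjusted p = 8.16e-05, edgeR's quasi-likelihood test). LARP1, the TOP-binding protein, went from 19.7 and 18.4 to 26.8 and 24.4 CPM (0.42 ± 0.09, adjusted p = 0.000504), and EIF4H rose by 0.37. EIF3I (-0.53), EIF4G1 (-0.35) and EEF1D (-0.43) fell. Without sg1 replicate 1 the numbers that rose were 10 for the mitochondrial ribosome, 10 for biogenesis and 6 for translation factors, and without sg1 replicate 2 they were 11, 9 and 6. With peaks shared between genes left out, fewer genes were tested: 8 of 46 mitochondrial ribosome genes (17.4%) and 10 of 44 biogenesis genes (22.7%) rose, beside 28.3% of all genes. For translation factors 11 of 35 rose (31.4%), and for the ribosomal protein genes 19 of 62 (30.6%). Of 8 cytosolic ribosomal protein genes and paralogues whose symbols fall outside the rule, 5 had a tested peak: FAU, which encodes RPS30, rose (0.31 ± 0.10, adjusted p = 0.0204), RPL36AL fell (-0.21 ± 0.06, adjusted p = 0.0114), and RACK1 (0.31), RPL7L1 (0.04) and RPL22L1 (-0.08) did not pass.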

How the data were processed

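Chromatin accessibility was measured by ATAC-seq in 4 libraries. The authors deposited raw counts per peak for 190348 peaks, made with featureCounts 1.6.0 per the file headers. Peak lengths come from the same deposited table as another, non-count column. The authors' tools included Trimmomatic 0.39, Bowtie2 and MACS2 2.2.4, per the submitters' processing notes; genome build, peak merging and the handling of duplicate reads: not given in the sources used here. Positions are those of the deposited table, placed with RefSeq genes of GRCh38.p14.

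Peaks at the start of chromosome 1 (109 within 250 kb, 17.9% to 25.4% of a library's counts) were left out. The quasi-likelihood F test of edgeR 4.0.16 (R 4.3.3) was fitted with filterByExpr, TMM (factors 0.981 to 1.02) and group alone to 184717 peaks, of which 21261 were higher and 31038 lower in sg1, with Benjamini-Hochberg adjustment over all of them at an FDR of 0.05. The SE is the log2 fold change divided by the square root of F. The common dispersion was 0.0066. DESeq2 1.42.0 was an alternative. Motifs and figures used Python 3.11.15 with pandas 2.3.3 and matplotlib 3.10.9. The test was also run on simulated data.

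The members and lists were chosen with earlier results of these data known. Named genes are the 20 called members with the smallest p, the 5 highest and 5 lowest by CPM, paralogues ending in L or X with their parents, RPS19, RPL5, RPL11, RPS14, RPSA and the stalk genes, the 3 smaller peaks with the smallest p, and up to 3 genes per direction of each context list. A few members are counted but not reported here by name, and are left out of figures that label genes. Genes counted from a list, by chromosome or by side, or leading by level per length, were named after their values were seen. The start peak of a gene and the set without the X chromosome were added after seeing the data. Promoters of 17 of the 82 genes were not used here.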

Additional observations from a re-analysis of the deposited data

How the results depend on the processing

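No ribosomal protein gene called in the main analysis changed sign under an alternative fit, but uncalled ones did: with TMM on gene-end peaks only, 44 of 80 lay above 0 in place of 62, and calls went from mostly higher to slightly more lower than higher. RPL23A, RPL12, RPL39L, RPS19, RPL24, RPS14, RPL26 and RPL3L kept their call in all 12 alternative fits. With DESeq2, 16 ribosomal protein genes were higher, beside 17.5% of all genes, as were 18 of their 181 peaks, with 3 lower. A DESeq2 share over all gene-end peaks is not given here. With DESeq2 the lists gave 12 higher for the mitochondrial ribosome, 10 for biogenesis and 8 for translation factors. With TMM on gene-end peaks only, 8 genes were higher and 10 lower with a median of 0.0145, 10 peaks were higher and 13 lower, and the lists gave 8 higher and 8 lower, 7 higher and 11 lower, and 3 higher and 7 lower. A loess offset gave 20 translation factors higher. Summing the peaks of a gene gave 5 ribosomal protein genes lower and 2 of the mitochondrial list lower. The start-side peak gave 1 lower. Within 500 bp of a gene end, 2 peaks were lower. Leaving out shared peaks gave 8 of 46 mitochondrial ribosome genes higher, and for biogenesis 10 higher and 1 lower of 44. It gave 11 higher of 35 translation factors, and for the ribosomal protein genes 19 higher and 3 lower of 62. Leaving out 1 library in turn gave 15 to 27 ribosomal protein genes higher and 1 to 3 lower, 18 to 34 peaks higher and 2 to 5 lower, and for the lists 10 to 21, 9 to 16 and 6 to 12 higher. The share of counts differed by 0.004998 points with the chromosome 1 start kept. The cause of these moves was not tested.

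With the replicate number as a block, 28 ribosomal protein genes were higher and 3 lower. The deviations of same-numbered libraries from their group means had a correlation of 1e-04 over the tested peaks. With few counts per peak, such a low value cannot show that the numbers carry no pairing. The main fit used group alone. Precision is limited by 2 libraries a group and by the shallower controls: the median peak held 35 and 26 counts there against 73 and 64 in sg1.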
